A study of Mus musculus with 6 samples.

Results

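Gsx1, Gsx2, Dlx1, Dlx2, Dlx5, Dlx6, Nkx2-1, Lhx6 and Lhx8 code for homeodomain transcription factors of the embryonic ventral forebrain. Their transcripts were followed in 6 whole mouse embryos at day 12 that differed in a STAT3 allele, STAT3-K177K180R, whose name gives arginine in place of lysine at both altered residues. Of these embryos, 2 were homozygous for the allele, 2 were heterozygous and 2 were wild type, and each gave 1 array of a 1-colour Agilent mouse design. No other allele, treatment or strain is given for any group. The set was taken as every gene probe on the array whose accession maps to 1 of the 9 symbols, which gave 12 of 39429 probes, and 11 of the 29903 probes that passed the filter on dim signals. These 9 genes stand beside 32451 gene identifiers on the array in all. The set was put together around a higher Gsx2 signal in homozygous embryos seen in these same data, so the Gsx2 difference between homozygous embryos and the others is given as a description, with no test. Per the labels the 3 genotypes shared a womb while each was covered by 2 independent experiments, and the parents of each embryo are not identified, so p-values measure only the spread between these samples, which may be technical. The labels speak of tumor tissue in the RNA extraction and of a mutant in 1 field of the wild-type samples, and the titles were followed here.

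The arrays sampled the whole embryo, not the forebrain. Of 30 marker genes for neural tissue, fetal liver, red blood cell precursors, heart, muscle, skeleton, endothelium, lung and thyroid, 29 were well above background on all 6 arrays, and Runx2 was on 5. The share of gene probes well above background was 73.4% and 70.7% in homozygous embryos, 75% and 77.3% in heterozygous embryos, and 76.1% and 75.3% in wild-type embryos. Both homozygous arrays belonged to a second scan, apart from the other 4, and their negative control spots read 43.5 and 48 (median spot signal), against 26 to 27 on the other arrays. Scan and homozygous genotype cannot be told apart. Stat3 itself read 1.38 and 1.09 in homozygous embryos, 1.07 and 0.82 in heterozygous embryos, and 0.81 and 0.81 in wild-type embryos, on the log2 scale relative to the 75th percentile of each array that is used throughout. Its homozygous minus wild type difference was 0.43 ± 0.16 (SE, with 2 embryos per genotype, limma's adjusted p = 0.0887), and a substitution in the protein is not read by such a probe.

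In the ventral telencephalon, Gsx2 and its relative Gsx1 act in the dividing progenitors of the ganglionic eminences, where Gsx2 keeps dorsal genes off and the Dlx genes on. Dlx1 and Dlx2, and after them Dlx5 and Dlx6, carry progenitors on towards GABAergic neurons. Nkx2-1 marks the medial ganglionic eminence and turns on Lhx6 and Lhx8, with Lhx6 needed by the cortical interneurons that leave it and Lhx8 by cholinergic neurons. Most of these genes also work elsewhere in an embryo of this age. The Dlx genes, Lhx6 and Lhx8 pattern the mesenchyme of the jaw arches, Nkx2-1 is needed for thyroid and lung, and Gsx1 is also found in hindbrain and spinal cord. In RNA from whole embryos, fewer cells of a type and less RNA per cell cannot be told apart, nor can the forebrain share of a transcript be told apart from that of other tissues.

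Between homozygous and wild-type embryos, Gsx2 lay higher, which is a description with no test. Lhx6 lay lower and passed the test, while the other 7 genes did not pass it. Lhx6 was the only 1 of the 8 genes other than Gsx2 past an adjusted p of 0.05, where 28.9% of all 24352 genes tested passed, 14.6% as lower and 14.3% as higher. The 8 genes other than Gsx2 had a median difference of −0.07, against 0.08 over all genes tested. With Gsx2 counted, the median of the 9 members was 0.01. Among the 8 genes other than Gsx2, homozygous embryos lay wholly above wild-type embryos for Gsx1 and Dlx2 and wholly below for Lhx6. Gsx2, on which the set was chosen, also lay wholly above and is not counted. No overlap was shown by 69.6% of all genes in this comparison, 39.6% as higher and 30% as lower.

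**Figure D1:**
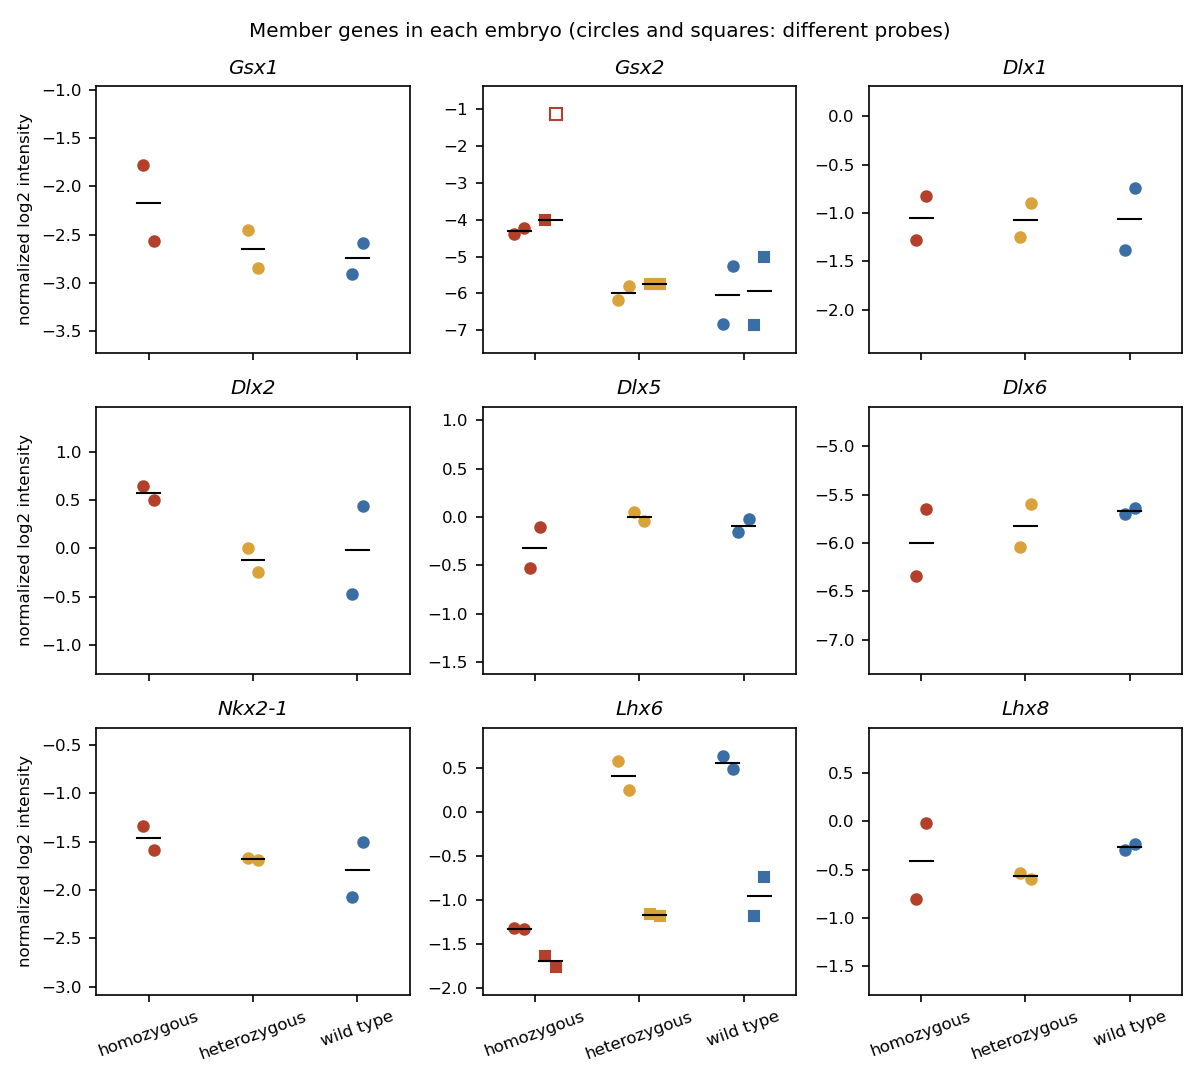
Normalized log2 intensity (vertical axis, each panel on its own range) of the 9 genes in the homozygous, heterozygous and wild-type embryos, 1 point per embryo, with a black line at the mean of each genotype. Circles and squares are different probes of a gene, and the open square is a Gsx2 spot marked as non-uniform by the scanner software and left out of the mean. Lhx6 is lower in both homozygous embryos at both probes, and the Gsx2 values of the 2 wild-type embryos are 1.57 apart at the probe drawn as circles.

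Gsx2 was read by 2 probes of the same accession, and its signal was low in all 6 embryos. At the probe A_55_P2052071 the processed intensity was 41.3 and 42.2 in homozygous embryos, 16.4 and 22.8 in heterozygous embryos, and 9.13 and 28.0 in wild-type embryos. Both homozygous embryos lay above the other 4, and wild-type embryo 1 was too dim to count as well above background. On the normalized log2 scale these values were −4.38 and −4.22 in homozygous embryos, −6.18 and −5.79 in heterozygous embryos, and −6.83 and −5.25 in wild-type embryos. Homozygous minus wild type, the difference was thus 1.74 and the homozygous minus heterozygous difference 1.69, while the 2 wild-type embryos differed by 1.57 from each other. The size of the Gsx2 difference therefore turned on which wild-type embryo was used: it was 0.95 without wild-type embryo 1 and 2.53 without wild-type embryo 2. After normexp background correction it was 0.76 with the 75th percentile and 0.55 with quantile normalization.

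The other Gsx2 probe, A_51_P520468, gave the higher value by which the set was first chosen, and 1 spot raised that value from 1.92 to 3.36. Its intensity was 53.7 and 358 in homozygous embryos, 22.3 and 23.7 in heterozygous embryos, and 9.0 and 33.3 in wild-type embryos, with wild-type embryo 1 again too dim to count as well above background. The spot at 358 in homozygous embryo 2 carried the scanner software's mark for non-uniform pixels. With that spot the homozygous minus wild type difference was 3.36, and the marked spot alone lay 4.79 above the wild-type mean. Without it the difference was 1.92, with 1 homozygous embryo left at that probe. In the same embryo the unmarked probe read 42.2, close to the 41.3 of homozygous embryo 1. In the authors' deposited table, which holds the marked spot, the 2 homozygous embryos had 6.03 and 8.87 (log2) at this probe, the heterozygous embryos 4.26 and 4.28, and the wild-type embryos 3.17 and 5.02.

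**Figure D2:**
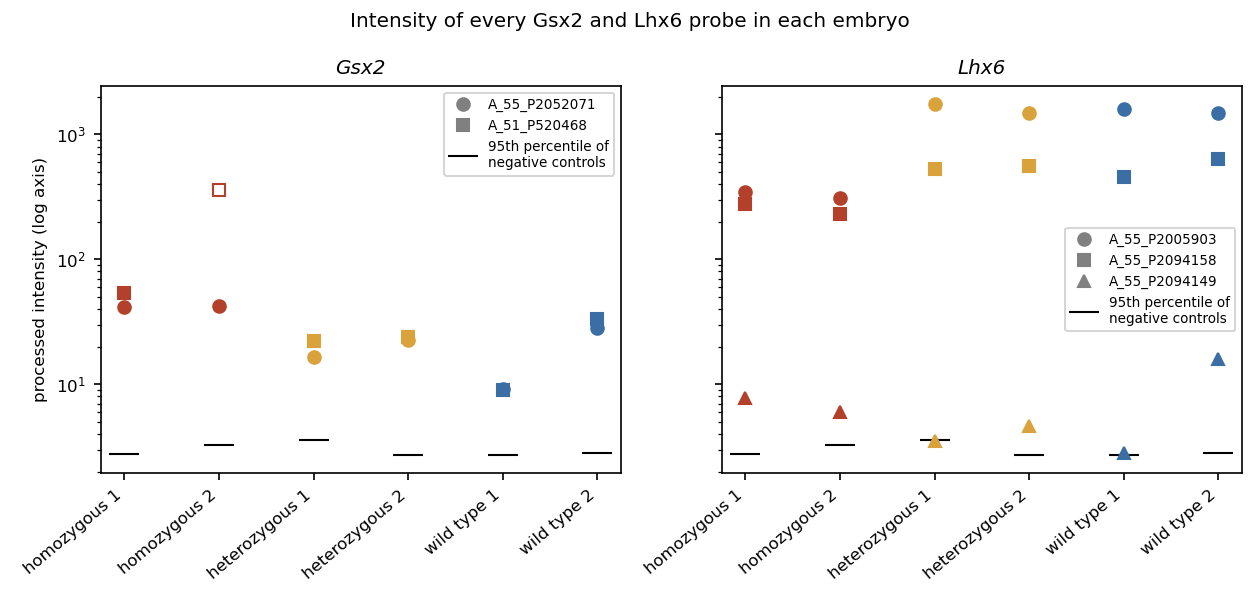
Processed intensity (log axis) of every Gsx2 and Lhx6 probe in each embryo, with the 95th percentile of the negative control spots of that array as a short black line. The open square is the Gsx2 spot marked as non-uniform, at 358, while the other Gsx2 probe in that embryo is at 42.2, and the Lhx6 probe drawn as triangles was well above background in wild-type embryo 2 alone.

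Heterozygous embryos were near wild type at both Gsx2 probes. The heterozygous minus wild type difference was 0.05 ± 0.47 at A_55_P2052071 (SE, n = 2 per genotype, 95% interval −1.09 to 1.20, limma's adjusted p = 1.00). At A_51_P520468 it was 0.19 ± 0.58 (95% interval −1.27 to 1.65). These intervals are wide enough to hold more than a doubling or a halving of the signal, so no statement on a heterozygous difference of that size can be made.

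The promoter windows of Gsx2 and Lhx6 are shown because these 2 genes had the largest differences of the set, one higher and one lower. Each is the 250 bases before a transcription start in RefSeq on GRCm38.p6, and 7 of the 9 genes had such a window. The Gsx2 window is chr5:75075351-75075600 on the plus strand. Lhx6 had 3 annotated starts, with windows at chr2:36105409-36105658 (a), chr2:36104534-36104783 (b) and chr2:36104061-36104310 (c), all on the minus strand. Capitals mark TATAAA.
Gsx2: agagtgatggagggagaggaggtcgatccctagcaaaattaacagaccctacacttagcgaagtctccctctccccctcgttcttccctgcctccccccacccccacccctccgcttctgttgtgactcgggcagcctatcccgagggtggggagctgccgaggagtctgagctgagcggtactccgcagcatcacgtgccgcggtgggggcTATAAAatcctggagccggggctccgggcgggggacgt
Lhx6 a: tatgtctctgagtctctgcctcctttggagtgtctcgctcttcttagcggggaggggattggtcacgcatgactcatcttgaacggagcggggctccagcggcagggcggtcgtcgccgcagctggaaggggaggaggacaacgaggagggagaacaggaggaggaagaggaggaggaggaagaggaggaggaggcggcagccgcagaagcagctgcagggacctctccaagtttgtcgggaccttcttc
Lhx6 b: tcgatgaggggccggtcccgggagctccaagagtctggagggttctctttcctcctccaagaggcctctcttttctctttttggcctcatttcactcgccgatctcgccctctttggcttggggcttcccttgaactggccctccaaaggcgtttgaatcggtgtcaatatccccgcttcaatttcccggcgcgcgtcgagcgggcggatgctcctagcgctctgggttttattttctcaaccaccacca
Lhx6 c: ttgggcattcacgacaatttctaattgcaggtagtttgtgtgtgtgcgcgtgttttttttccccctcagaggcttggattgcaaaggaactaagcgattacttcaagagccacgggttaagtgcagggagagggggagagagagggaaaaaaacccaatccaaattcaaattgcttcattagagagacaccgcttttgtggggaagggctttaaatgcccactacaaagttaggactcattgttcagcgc
The windows were searched on both strands for TTCNNNGAA, the spaced palindrome bound by STAT dimers, for TAATTA, a core read by homeodomains, and for TATAAA, with overlapping matches allowed. The Gsx2 window held 1 TATAAA, its first base 38 bases before the start, and TATAAA was found in 12.4% of 32851 windows of this length. No window of the 7 genes held TTCNNNGAA or TAATTA, which were found in 7.02% and 4.84% of all windows. These letters were not in these windows, and nothing follows from that for binding of either factor. G and C made up 63.6% of the Gsx2 window and 61.6%, 57.2% and 46% of the Lhx6 windows a, b and c.

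Gsx1, the close relative of Gsx2 that shares part of its role in progenitors, had intensities of 250 and 133 in homozygous embryos, 217 and 175 in heterozygous embryos, and 139 and 177.1 in wild-type embryos. On the normalized scale both homozygous embryos, at −1.78 and −2.56, stood above both wild-type embryos, at −2.90 and −2.59, by a margin of 0.03 for the nearest pair. The heterozygous embryos were at −2.45 and −2.85 and overlapped both other genotypes. The homozygous minus wild type difference was 0.57 ± 0.29 (SE, n = 2 per genotype, 95% interval −0.12 to 1.27, limma's adjusted p = 0.173). Without homozygous embryo 2 it was 0.97 (limma's adjusted p = 0.0233), with 1 homozygous embryo assumed to vary like the other groups, and without homozygous embryo 1 it was 0.18.

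The 4 Dlx genes lie in 2 pairs of neighbours, Dlx1 beside Dlx2 on chromosome 2 and Dlx5 beside Dlx6 on chromosome 6, and none of them passed the test in any comparison. Dlx2, which acts in progenitors downstream of Gsx2, had intensities of 1341 and 1111 in homozygous embryos, 1190 and 1065 in heterozygous embryos, and 746 and 1449 in wild-type embryos. Relative to each array it was 0.64 and 0.50 in homozygous embryos, 0.00 and −0.25 in heterozygous embryos, and −0.47 and 0.44 in wild-type embryos. Both homozygous embryos were thus highest, by 0.06 over wild-type embryo 2, and the 2 wild-type embryos were 0.92 apart. The homozygous minus wild type difference was 0.59 ± 0.29 (SE, n = 2 per genotype, 95% interval −0.12 to 1.30, limma's adjusted p = 0.176). Without wild-type embryo 2 it was 1.05 (limma's adjusted p = 0.0442), and without wild-type embryo 1 it was 0.13.

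Dlx1, the partner of Dlx2 in the same cells, read −1.28 and −0.83 in homozygous embryos, −1.25 and −0.90 in heterozygous embryos, and −1.39 and −0.74 in wild-type embryos. All 3 genotypes overlapped, and the homozygous minus wild type difference was 0.01 ± 0.27 (SE, n = 2 per genotype, 95% interval −0.64 to 0.66, limma's adjusted p = 0.974). Its sign turned on 1 array, at −0.31 without wild-type embryo 1 and 0.34 without wild-type embryo 2, and at 0.24 and −0.21 without homozygous embryos 1 and 2. The interval leaves room for a change of about the size measured for Dlx2, so the 2 neighbours were not shown to differ from each other.

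Dlx5, which follows Dlx1 and Dlx2 in postmitotic neurons and also shapes the lower jaw, was −0.53 and −0.11 in homozygous embryos, 0.05 and −0.04 in heterozygous embryos, and −0.15 and −0.03 in wild-type embryos. Homozygous embryo 1 was the lowest of the 6, while homozygous embryo 2 lay between the wild-type embryos. The homozygous minus wild type difference was −0.23 ± 0.17 (SE, n = 2 per genotype, 95% interval −0.64 to 0.18, limma's adjusted p = 0.341). It was −0.02 without homozygous embryo 1 and −0.44 without homozygous embryo 2.

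Dlx6, the neighbour of Dlx5 with a like role, was dim, with intensities of 10.6 and 15.6 in homozygous embryos, 18.1 and 26.0 in heterozygous embryos, and 19.9 and 21.4 in wild-type embryos. It was not well above background in homozygous embryo 1. On the normalized scale the embryos overlapped, at −6.34 and −5.65 in homozygous embryos, −6.04 and −5.60 in heterozygous embryos, and −5.70 and −5.64 in wild-type embryos. The homozygous minus wild type difference was −0.32 ± 0.26 (SE, n = 2 per genotype, 95% interval −0.95 to 0.30, limma's adjusted p = 0.374). It was 0.02 without homozygous embryo 1 and −0.67 without homozygous embryo 2. After another background correction (normexp, with the 75th percentile) both differences turned sign, to 0.22 against wild type and to 0.40 in place of −0.18 against heterozygous embryos.

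Nkx2-1, the gene that marks the medial ganglionic eminence, was printed on the array 10 times. Its mean intensity was 341.6 and 262.5 in homozygous embryos, 373.6 and 391.8 in heterozygous embryos, and 247 and 375.6 in wild-type embryos. The SD between the 10 spots of an array was 0.03 to 0.11 on the log2 scale. The normalized values were −1.33 and −1.58 in homozygous embryos, −1.67 and −1.69 in heterozygous embryos, and −2.07 and −1.51 in wild-type embryos. The 2 wild-type embryos were 0.56 apart. Both homozygous embryos lay above both heterozygous embryos and overlapped wild type. Its homozygous minus wild type difference was 0.33 ± 0.21 (SE, n = 2 per genotype, 95% interval −0.17 to 0.84, limma's adjusted p = 0.266). It was 0.05 without wild-type embryo 1, 0.61 without wild-type embryo 2 and 0.21 without homozygous embryo 1.

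Lhx6, a target of Nkx2-1 and a mark of interneurons leaving the medial ganglionic eminence, fell in homozygous embryos. At the brighter probe, A_55_P2005903, its intensity was 344.7 and 310.9 in homozygous embryos, 1765 and 1494 in heterozygous embryos, and 1608 and 1488 in wild-type embryos. The 2 homozygous embryos were nearly equal, at −1.32 and −1.34 on the normalized log2 scale, and stood far below the heterozygous embryos, at 0.57 and 0.24, and the wild-type embryos, at 0.63 and 0.48. Set against wild type, the homozygous difference was −1.88 ± 0.16 (SE, n = 2 per genotype, 95% interval −2.26 to −1.51, limma's adjusted p = 0.00109), or 0.271 of the wild-type level (95% interval 0.209 to 0.351). The homozygous minus heterozygous difference was −1.74 ± 0.16 (limma's adjusted p = 0.00156).

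A second Lhx6 probe of the same accession, A_55_P2094158, gave the same direction and a smaller size. Its intensity was 276.7 and 231.7 in homozygous embryos, 531.6 and 556.2 in heterozygous embryos, and 457.4 and 637.3 in wild-type embryos, with no overlap between homozygous embryos and the rest. Homozygous minus wild type, this gave −0.74 ± 0.17 (SE, n = 2 per genotype, 95% interval −1.16 to −0.32, limma's adjusted p = 0.0259 over all probes, of which 27.7% passed), or 0.60 of the wild-type level. This call was lost, with an adjusted p between 0.0511 and 0.165 in limma's test, with no filter on dim probes and in 4 of the 6 fits that left out 1 array, in which the difference ranged from −0.96 to −0.52. The intervals of the 2 probes did not overlap. The remaining probe, A_55_P2094149, carries the accession of another Lhx6 transcript and was well above background in wild-type embryo 2 alone. It read 7.72 and 5.99 in homozygous embryos, 3.53 and 4.64 in heterozygous embryos, and 2.84 and 15.9 in wild-type embryos, and it was not tested.

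Lhx8, the other LIM homeobox gene downstream of Nkx2-1, did not pass the test at the one probe it has. Its intensity was 492 and 773 in homozygous embryos, 818 and 832 in heterozygous embryos, and 842 and 907 in wild-type embryos. Relative to each array it was −0.81 and −0.02 in homozygous embryos, −0.54 and −0.60 in heterozygous embryos, and −0.30 and −0.23 in wild-type embryos, so 1 homozygous embryo was lowest and the other highest of the 6. Its homozygous minus wild type difference was −0.15 ± 0.25 (SE, n = 2 per genotype, 95% interval −0.75 to 0.46, limma's adjusted p = 0.680). It was −0.54 without homozygous embryo 2 (limma's adjusted p = 0.0325) and 0.24 without homozygous embryo 1. The interval for Lhx8 lies above that for the brighter Lhx6 probe and overlaps that for the second, and a difference between the 2 genes was not tested.

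**Figure D3:**
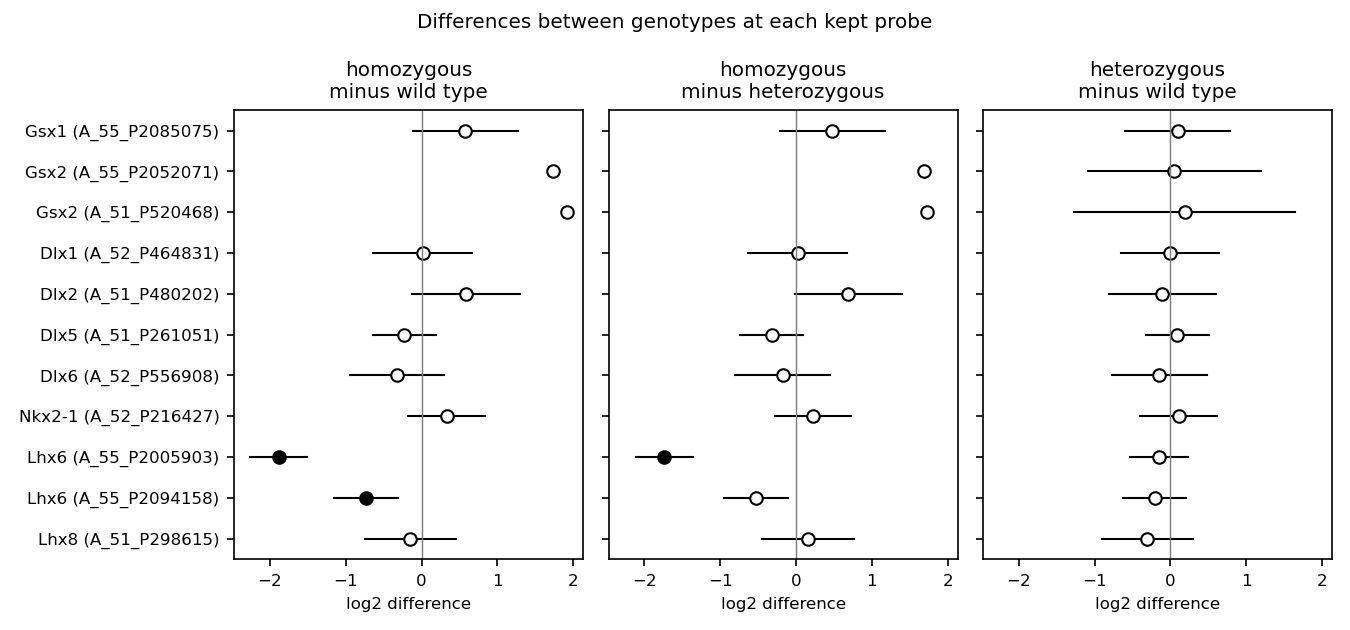
Log2 difference at each kept probe of the 9 genes for homozygous minus wild type, homozygous minus heterozygous and heterozygous minus wild type, with 95% intervals as lines and filled points at a limma adjusted p below 0.05 over all kept probes. Gsx2 is drawn without interval or call in the 2 comparisons with homozygous embryos because it was chosen on them. The filled points are the 2 Lhx6 probes against wild type, at −1.88 and −0.74, and the brighter of them against heterozygous embryos, at −1.74.

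In the homozygous against heterozygous comparison, Lhx6 was again the only 1 of the 8 genes other than Gsx2 past the threshold, where 23.9% of all genes tested passed and 13.2% as lower. Among these 8 genes, Dlx2 and Nkx2-1 lay wholly above and Dlx5 and Lhx6 wholly below the heterozygous embryos. Over all genes, 64% showed no overlap, 35.8% as higher and 28.2% as lower. Gsx2, on which the set was chosen, also lay wholly above and is not counted. Dlx2 came nearest to the threshold of the others, at 0.69 ± 0.29 (SE, n = 2 per genotype, 95% interval −0.02 to 1.40, limma's adjusted p = 0.132). Gsx1 was at 0.48 (limma's adjusted p = 0.254) and Dlx5 at −0.32 (limma's adjusted p = 0.208). Without homozygous embryo 2, Gsx1 (0.87, limma's adjusted p = 0.0361) and Dlx5 (−0.53, limma's adjusted p = 0.0428) passed, and without homozygous embryo 1 Lhx8 did (0.55, limma's adjusted p = 0.0302). The homozygous arrays enter both comparisons, so these values do not add independent support.

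Between heterozygous and wild-type embryos, whose arrays shared a scan, no member passed limma's test, where 0% of all genes tested did (551 genes at an unadjusted p below 0.05, and none of the 9). The member differences ranged from −0.30 for Lhx8 to 0.11 for Nkx2-1, with a median of −0.01, against 0.00 over all genes. Lhx8 alone was free of overlap, with both heterozygous embryos below both wild-type embryos at −0.30 ± 0.25 (SE, with 2 embryos per genotype, limma's adjusted p = 1.00), and 26.8% of all genes showed no overlap here, 14.9% as higher and 11.9% as lower. At its brighter probe Lhx6 was at −0.15 ± 0.16 (95% interval −0.52 to 0.23), an interval that does not reach the difference of homozygous embryos. At A_55_P2094158 it was at −0.21 (95% interval −0.63 to 0.21), which overlaps the homozygous interval at that probe (−1.16 to −0.32).

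The 2 embryos of a genotype differed from each other by as much as many of these differences. Wild-type embryo 1 was below wild-type embryo 2 in 8 of the 9 genes, Lhx6 being the exception, with gaps from 0.06 for Dlx6 to 1.57 for Gsx2. The largest gap between homozygous embryos was 0.78, for Lhx8, and the largest between heterozygous embryos was 0.44, for Dlx6. Over 24293 genes measured in every embryo the SD of the difference between the 2 embryos was 0.47 in homozygous, 0.29 in heterozygous and 0.27 in wild-type embryos. The mean of 4 neural markers was 2.13 and 1.92 in homozygous embryos, 1.88 and 1.74 in heterozygous embryos, and 1.74 and 1.78 in wild-type embryos. Over these markers, at 1 probe per gene, the homozygous minus wild type differences ranged from 0.17 to 0.35 and none passed. Elavl4 was at −0.26 at its other probe, which did not pass either. Of the markers of all tissues, 7 of 30 passed limma's test, a smaller share than the 28.9% of all genes tested. Apoa2 (0.80) and Afp (0.62) of fetal liver, Myog of muscle (0.59) and Matn1 of cartilage (1.00) were higher in homozygous embryos, and Tnnt2 of heart (−0.67), Runx2 of bone (−0.67) and Tg of thyroid (−0.54) were lower. Of these 7, Apoa2 and Runx2 had another kept probe, at 0.20 and 0.23, and neither of those probes passed. The part of these tissues in the differences of the homeobox genes was not tested.

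As a description over the 6 arrays, Dlx2 ran most closely with Gsx2 among the members, at a Pearson correlation of 0.92, followed by Nkx2-1 at 0.84. Lhx6 ran against Gsx2, at −0.90. Dlx2 and Nkx2-1 had 0.90 with each other, while Lhx8 had 0.07 with Gsx2 and 0.03 with Lhx6. Of 16111 genes with a symbol compared, those most like Gsx2 included Vpreb1, a part of the surrogate light chain of early B cells (0.999), Nxt2, of mRNA export (0.996), Unc13b, of synaptic vesicle priming (0.991), and Mcoln1, a lysosomal channel (0.990). As many as 110 genes had a correlation over 0.95, and all such values share the same 6 arrays, the split between genotypes and the split between scans.

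The counts of the lists that follow stand against 28.9% of all genes called between homozygous and wild-type embryos, 14.3% as higher and 14.6% as lower, 43.3% at an unadjusted p below 0.05, and a median of 0.08. Of 26 genes of ventral progenitors and GABAergic neurons, which act with the members, 1 rose, 2 fell and 23 did not pass between homozygous and wild-type embryos, with a median difference of 0.14 and a smaller share called than over all genes. Ebf1, of early striatal neurons, rose by 0.73 ± 0.13 (SE, with 2 embryos per genotype, limma's adjusted p = 0.0113), at 0.25 and 0.25 in homozygous embryos and −0.44 and −0.54 in wild-type embryos. Six3, needed for the anterior forebrain and eye, had a difference of −1.16 ± 0.29 (limma's adjusted p = 0.0298), at −2.35 and −2.82 in homozygous embryos and −1.62 and −1.23 in wild-type embryos. Ptch1, the Hedgehog receptor, had a difference of −0.59 (limma's adjusted p = 0.0295), and Sp9, of striatal and interneuron precursors, was at 0.50 (limma's adjusted p = 0.0602). Without either wild-type embryo the call of Ebf1 was lost (0.78 without embryo 1, 0.69 without embryo 2), as were those of Six3 (−1.35 and −0.97) and Ptch1 (−0.65 and −0.53). Without homozygous embryo 2 Six3 (−0.93) and Ptch1 (−0.50) also lost theirs, and Ptch1 was at −0.04 after normexp with the 75th percentile.

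Several direct partners of the Gsx and Dlx genes are named here, picked out with their values in view. At the probe that represented each gene, none of those named passed the test between homozygous and wild-type embryos. Gad1 and Gad2, the enzymes of GABA synthesis that Dlx proteins turn on, were at 0.15 (limma's adjusted p = 0.440) and 0.03 (limma's adjusted p = 0.903). Dlx6os1, the RNA transcribed across the Dlx5 and Dlx6 pair, was at 0.56 ± 0.30 (SE, with 2 embryos per genotype, limma's adjusted p = 0.201), and whether its probe also reads Dlx6 transcripts was not tested. The probes of Sp8 went opposite ways, at 0.47 for the brighter (limma's adjusted p = 0.144) and −1.29 for another (limma's adjusted p = 0.00513 over all probes).

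Of 20 genes of migrating interneurons, 19 were tested, and 4 rose, 3 fell and 12 did not pass, with a median of 0.05, where 28.9% of all genes passed. Nrp1, a semaphorin receptor that steers interneurons around the striatum, fell by 1.13 on the log2 scale (SE 0.13, limma's adjusted p = 0.00268), with −2.89 and −2.70 in homozygous embryos and −1.65 and −1.68 in wild-type embryos. Calb1, a calcium-binding protein of interneurons, was at −0.72 (limma's adjusted p = 0.0149). Nr2f2, of the caudal ganglionic eminence but also of veins and mesenchyme, rose by 0.69 ± 0.12 (limma's adjusted p = 0.00909), and Ackr3, a receptor for Cxcl12 in migrating interneurons, rose by 0.54 ± 0.13 (limma's adjusted p = 0.0256). Sox6 and Satb1, which act after Lhx6 and were picked out with their values in view, were at 0.44 (limma's adjusted p = 0.189) and 0.27 (limma's adjusted p = 0.177). Nrp1 passed in all 6 fits that left out 1 array. Without wild-type embryo 1 or 2 the calls were lost for Nr2f2 (0.69 and 0.70) and Calb1 (−0.78 and −0.66), and Calb1 was at −0.01 after normexp with the 75th percentile. Ackr3 kept its call in 1 of the 6 such fits, the one without homozygous embryo 1, with a range of 0.45 to 0.63.

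Of 16 genes of the dorsal forebrain, several of which Gsx2 keeps off in ventral progenitors, 3 rose, 0 fell and 13 did not pass in limma's test, with a median of 0.40. This was a smaller share than the 28.9% of all genes called, with 14.3% as higher. At an unadjusted p below 0.05, 7 of the 16 differed, about the share of all genes (43.3%). Neurog1 and Neurog2, the proneural genes of cortical progenitors, rose by 1.49 ± 0.15 (SE, with 2 embryos per genotype, limma's adjusted p = 0.00190) and by 1.06 ± 0.25 (limma's adjusted p = 0.0241). Neurog1 was well above background in 1 of the 2 wild-type embryos, and both genes are also active in sensory ganglia and spinal cord. Lhx2, of cortex and eye, rose by 0.79 ± 0.19 (limma's adjusted p = 0.0261), and Tbr1, of early cortical neurons, was at 0.75 (limma's adjusted p = 0.0560), with 0.79 at a second probe (limma's adjusted p = 0.0223 over all probes). Neurog1 passed in all 6 fits that left out 1 array, and its difference was 0.65 after normexp with the 75th percentile and 0.39 after normexp with quantile normalization. Neurog2 lost its call without homozygous embryo 2 (0.83) or wild-type embryo 1 (0.76), and Lhx2 without wild-type embryo 1 (0.53) or either heterozygous embryo (0.79), while Tbr1 gained one without wild-type embryo 2 (1.1). After normexp with the 75th percentile 9 genes of the list rose and 1 fell. That setting called 8710 of all 24352 genes, 67.7% of these as higher, and the median over all genes was 0.19. Over the list the mean level was −1.76 and −1.70 in homozygous embryos, −2.07 and −2.16 in heterozygous embryos, and −2.34 and −1.95 in wild-type embryos.

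The other tissues of the members were set beside them. Of 18 genes of the branchial arches, in which Dlx5, Dlx6, Lhx6 and Lhx8 are also active, 2 rose, 3 fell and 13 did not pass, with a median of −0.09, a share near the 28.9% of all genes. Gsc, a target of Dlx5 and Dlx6 in the lower jaw, had −0.82 and −1.29 in homozygous embryos, 0.69 and 0.43 in heterozygous embryos, and 0.80 and 0.84 in wild-type embryos, and its homozygous minus wild type difference of −1.87 ± 0.19 was of the size seen for Lhx6 (SE, with 2 embryos per genotype, limma's adjusted p = 0.00201). Barx1, of molar and stomach mesenchyme, was at −0.95 (limma's adjusted p = 0.0196). Prrx1, of limb and facial mesenchyme, was at −1.72 (limma's adjusted p = 0.00218) but at −0.06 at its other probe. Lhx9, a LIM homeobox gene of limb and gonad, was at 0.71 (limma's adjusted p = 0.0172), with 0.67 and −0.05 at its other probes. Gsc passed in all 6 fits that left out 1 array, at −2.10 to −1.64. Without wild-type embryo 1 or 2 the calls were lost for Barx1 (−0.77 and −1.12) and Lhx9 (0.61 and 0.82). Whether the lower Lhx6 signal came from forebrain or from arch tissue was not tested, since each array holds both.

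Of 12 genes of thyroid and lung, where Nkx2-1 is also active, 0 rose, 1 fell and 11 did not pass in limma's test, against 28.9% of all genes, with a median of 0.32. At an unadjusted p below 0.05 there were 5 of the 12, about the 43.3% of all genes. Tg, the thyroid hormone precursor, was at −0.54 ± 0.15 (SE, with 2 embryos per genotype, limma's adjusted p = 0.0431), Hhex at −0.59 (limma's adjusted p = 0.0522) and Etv5, of lung buds, at 0.47 (limma's adjusted p = 0.0768). Foxa2, of foregut endoderm, was at 0.43 (limma's adjusted p = 0.109) and at 0.05 at its other probe. Sftpb and Sftpc, of lung and picked out with their values in view, had the largest differences of the list, 1.18 and 1.01, and did not pass. Both were high in homozygous embryo 1 alone. Sftpb read −1.22 and −6.73 in homozygous embryos and −5.23 and −5.10 in wild-type embryos. Sftpc read −0.67 and −3.78 in homozygous embryos and −3.44 and −3.03 in wild-type embryos. Tg lost its call without homozygous embryo 2 (−0.49), wild-type embryo 1 (−0.48) or wild-type embryo 2 (−0.60). Over all 18 alternatives its difference ran from −0.60 to −0.06. Calls were gained without homozygous embryo 2 for Etv5 (0.62) and Foxa2 (0.66), and without homozygous embryo 1 for Hhex (−0.75). With 1 array left out, the counts higher and lower against wild type ran over 0 to 2 and 0 to 3 for ventral progenitors, 0 to 5 and 1 to 4 for interneurons, 0 to 4 and 2 to 4 for branchial arch, and 0 to 5 and 0 to 3 for thyroid and lung. Over all 5 lists no gene passed limma's test between heterozygous and wild-type embryos. Between homozygous and heterozygous embryos, where 10.6% of all genes passed as higher and 13.2% as lower, the counts of genes higher and lower were 2 and 1 for ventral progenitors, 2 and 3 for interneurons, 3 and 0 for dorsal forebrain, 2 and 3 for branchial arch, and 0 and 1 for thyroid and lung.

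**Figure D4:**
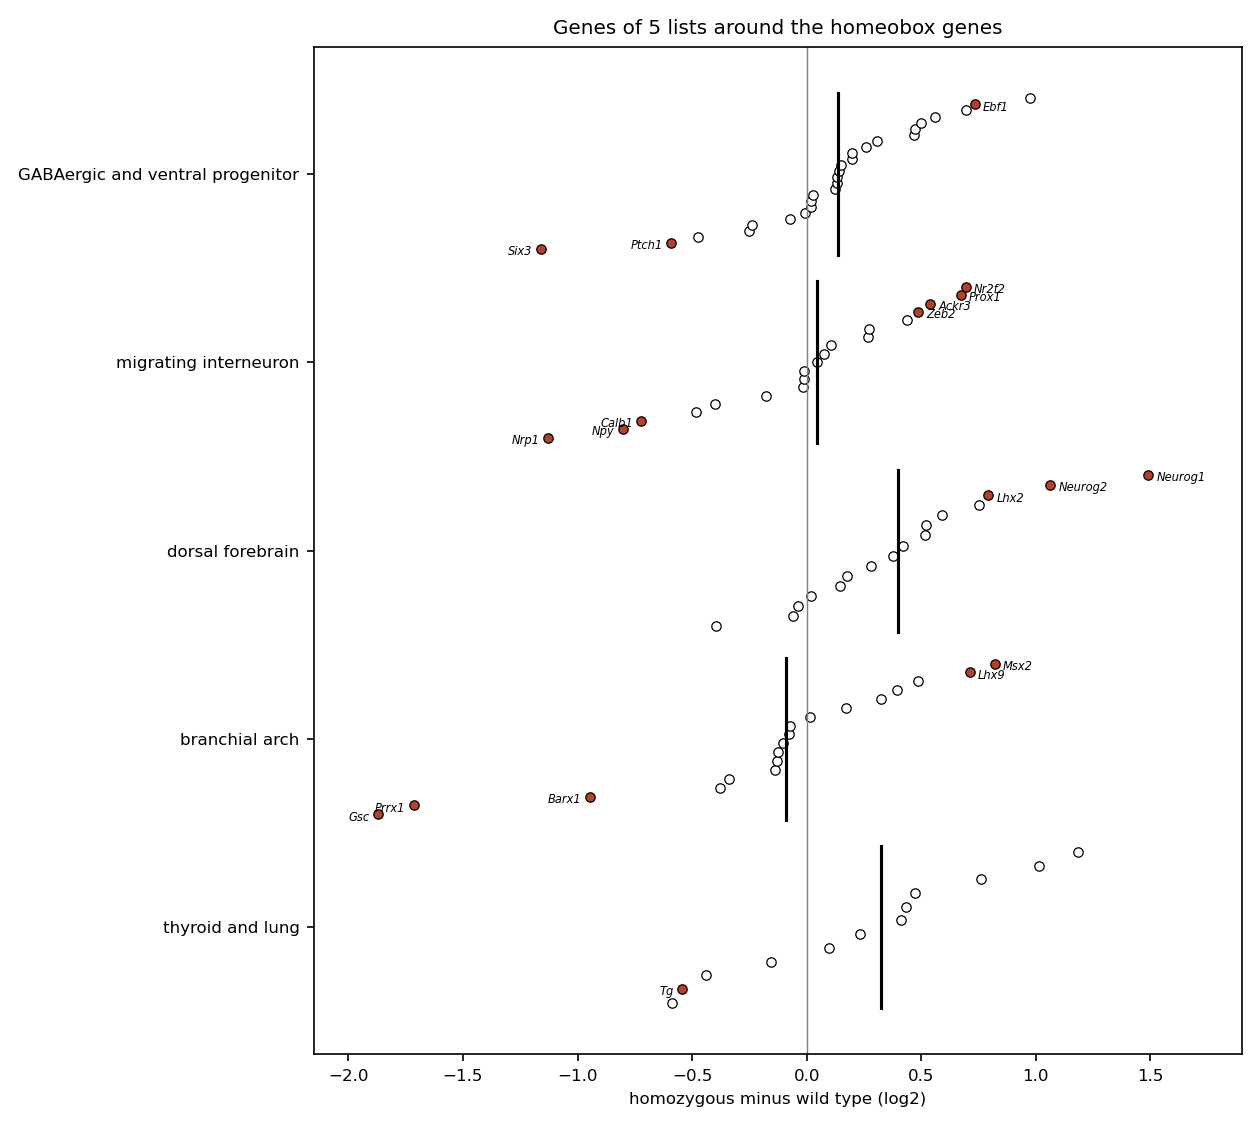
Homozygous minus wild type log2 difference of each gene in 5 lists, sorted within a list, with filled and named points at a limma adjusted p below 0.05 over all genes and a vertical line at the median of each list. The dorsal forebrain list has its median at 0.40 and 3 of 16 points filled, all higher in homozygous embryos, where 28.9% of all genes tested passed, and Gsc is the lowest point, at −1.87.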

How the data were processed

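Per the labels, total RNA of 6 whole embryos was amplified, labelled with Cy3 and hybridised to 1 array each. Per the file headers, the deposited intensity values come from Agilent Feature Extraction 11.0.1.1, which subtracted background and detrended each array by itself, on a design annotated to mm9. A table of log2 values, deposited by the authors, has equal quartiles in all arrays (median 6.73). Its method is not given in the sources used here, and it was an alternative.

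Of 44397 spots, 1377 controls and all spots marked as outliers were left out. Each spot was log2 transformed and reduced by the 75th percentile of the array, and the spots of a probe were then averaged. That percentile was 860 and 785 in homozygous, 1187 and 1263 in heterozygous and 1037 and 1067 in wild-type embryos. Kept were probes that stood well above background in both embryos of a genotype (29903), and the kept probe with the highest mean represented its gene (24352). RefSeq accessions named 69.1% of probes. All arrays were fitted in limma 3.58.1 (R 4.3.3, 3 residual and 3.33 prior degrees of freedom) with Benjamini-Hochberg adjustment over all genes and a threshold of 0.05. The fit was checked on simulated data. Precision is limited by the number of arrays. Named are all members, Stat3, up to 4 genes per list with the smallest p against wild type and the 5 genes most like Gsx2, of which 1 is not reported here, and the text says where another gene was picked with its value in view. Members and lists were chosen with earlier results of these data known.

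Same-numbered embryos were not taken as pairs, since their deviations correlated at −0.16, 0.01 and 0.26 in the 3 comparisons. Alternatives covered background correction, normalization, filters, probe choice, samples in the fit, variance and each array left out, and later, after seeing the data, marked spots kept and array position as a block. The planned normexp correction used the median spot signal. A genome, proteins and probe sequences were not used here.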

Additional observations from a re-analysis of the deposited data

Results flagged for a closer look

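The spot of the Gsx2 probe A_51_P520468 in homozygous embryo 2 holds a signal outside the values used, since it was marked as non-uniform and left out. It read −1.13 on the normalized log2 scale, against −4.0 at the same probe in homozygous embryo 1, −5.73 and −5.73 in heterozygous embryos, and −6.85 and −5.00 in wild-type embryos. Its median pixel signal was 314.5, against 101 in homozygous embryo 1, so the median pixel too was bright. At the other Gsx2 probe the 2 homozygous embryos read −4.22 in embryo 2 and −4.38 in embryo 1.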

How the results depend on the processing

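The Lhx6 fall against wild type passed in all 19 alternatives, at −1.96 to −0.74, and against heterozygous embryos in 17 of 18, the exception being its second brightest probe (−0.53, limma's adjusted p = 0.0876). The Gsx2 difference against wild type, on which the set was chosen, is given as a description, and its direction is no test. It ranged from 0.55 to 3.36 over 18 alternatives, lowest after normexp with quantile normalization and 0.76 after normexp with the 75th percentile. It was 3.36 with marked spots kept or in the authors' deposited table. Normexp with the 75th percentile gave Dlx6 a homozygous minus heterozygous difference of 0.40 (limma's adjusted p = 0.0293), against −0.18, and the cause was not tested. It also moved the median of all genes to 0.19 against wild type and 0.24 against heterozygous embryos, and the share of higher calls to 67.7% against 49.5% and to 75.7% against 44.6%.

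Genes called between homozygous and wild-type embryos were 7042, and 1050 with second brightest probes (4631 genes tested), 4147 with array position as a block, and 1898 to 8737 with 1 array left out. Between homozygous and heterozygous embryos they were 5809, and 11204 after normexp with the 75th percentile, 833 with second brightest probes, 3167 with only these 2 genotypes fitted, and 1640 to 7701 with 1 array left out. Between heterozygous and wild-type embryos they were 0, and 0 to 6 with 1 array left out. Gsx2 is left out of the counts of members, since the set was chosen on its homozygous values. With second brightest probes, Lhx6 was the only member left to test in these counts. Members called against wild type were 1 of 8, and 1 to 3 with 1 array left out (3 without homozygous embryo 2, 2 without wild-type embryo 2). Members called against heterozygous embryos were 1 of 8, and 2 after normexp with the 75th percentile, 0 with second brightest probes, and 1 to 3 with 1 array left out (2 and 3 without homozygous embryos 1 and 2). Member probes called against wild type were 2 of 9, and 1 with no filter and 1 to 3 with 1 array left out. The replicate block gave 6806, 5534 and 0 genes and the same number of members, and its pairing is not given by the labels.

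Of the list genes named, calls were lost most often, in 9 of 18 alternatives for Ackr3, 8 for Tg and 7 for Ptch1, and in 0 for Gsc, Nrp1 and Neurog1. Slide as a block could not be fitted to the homozygous comparisons. Low signal limits Gsx2 and Dlx6, each not well above background on 1 array.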
